A study of Homo sapiens with 8 samples.

Results

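The genes described here are 10 genes best known from white blood cells: PRF1, INPP5D, CD3D, CD3E, CD3G, CORO1A, LAT2, IL32, LAPTM5 and PTPRC. They were followed in HCT116, a human colorectal carcinoma cell line, and they are 10 of the 60649 gene identifiers, 19942 of them protein-coding, in the gene tables. They were chosen by their TPM (a transcript level scaled for gene length and for the library total) in these same libraries. The set puts genes that lay higher after UHRF1 knockdown, such as PRF1, INPP5D and CD3D, beside leukocyte genes that stayed low. The levels, fold changes and calls of these 10 genes are therefore a description and carry no test. PolyA RNA was sequenced from 4 groups of 2 libraries each. HCT116 shScr and HCT116 shUHRF1 were the parental line with a control hairpin or a hairpin against UHRF1. UF1hypo shScr and UF1hypo shUHRF1 carried the same hairpins in UF1hypo, a heterozygous UHRF1 knockout clone of HCT116 in which exon 4 of the gene was excised from a single allele. All 4 groups were stable lentiviral pools under puromycin selection, so a hairpin vector is common to all of them, and UF1hypo is a single clone, so that a property of this clone and its UHRF1 dose cannot be told apart. The labels do not say whether the 2 libraries of a group came from separate cultures, so every p-value below measures the spread between these libraries.

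UHRF1 reads hemimethylated DNA and brings DNMT1 to newly copied strands, which keeps DNA methylation through cell division. Many leukocyte genes are methylated and silent in epithelial cells, and are read in blood cells by lineage transcription factors. Perforin (PRF1) is the pore-forming protein of cytotoxic lymphocyte granules. The CD3 chains (CD3D, CD3E and CD3G) carry the signal of the T-cell receptor. SHIP1 (INPP5D) removes a phosphate from the lipid messenger that PI3-kinase makes in blood cells. CORO1A binds actin in leukocytes, LAT2 is an adaptor of B-cell and mast-cell receptors, IL32 is a cytokine of lymphocytes and of stimulated epithelium, LAPTM5 is a lysosomal membrane protein of blood cells, and PTPRC (CD45) is the tyrosine phosphatase on the surface of nucleated blood cells.

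The promoter windows of the genes that the results turn on are printed here because UHRF1 acts on CpG sites. Of the 10 genes, 7 had an entry in the RefSeq promoter table for GRCh38.p14, and CD3E, CD3G and LAT2 had none. Each window is the 250 bases before the RefSeq start site, 5′ to 3′ on the strand of the gene, with every CpG in capitals. Shown are PRF1 and CD3D, which were higher after knockdown in UF1hypo, LAPTM5, which stayed low, and HCLS1, the leukocyte actin regulator with the largest change in UF1hypo among the other leukocyte-list genes. Windows with more than 30 bases in annotated exons, those of INPP5D, CORO1A, IL32 and PTPRC, are given by their counts alone. The printed windows of PRF1 and HCLS1 hold 18 and 24 such bases. The windows are chr10:70602742-70602991 for PRF1, chr11:118342706-118342955 for CD3D, chr1:30757775-30758024 for LAPTM5 and chr3:121660904-121661153 for HCLS1, each on the minus strand.
PRF1: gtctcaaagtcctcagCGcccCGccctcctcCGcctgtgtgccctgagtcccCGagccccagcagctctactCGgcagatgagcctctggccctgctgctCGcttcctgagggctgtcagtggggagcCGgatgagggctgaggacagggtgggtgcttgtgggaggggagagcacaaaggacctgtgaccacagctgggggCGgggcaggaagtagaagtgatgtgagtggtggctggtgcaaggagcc
CD3D: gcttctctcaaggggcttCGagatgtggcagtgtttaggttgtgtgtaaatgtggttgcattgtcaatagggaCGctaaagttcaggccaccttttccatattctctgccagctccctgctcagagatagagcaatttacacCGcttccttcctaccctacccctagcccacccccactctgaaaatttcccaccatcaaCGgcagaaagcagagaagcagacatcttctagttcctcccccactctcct
LAPTM5: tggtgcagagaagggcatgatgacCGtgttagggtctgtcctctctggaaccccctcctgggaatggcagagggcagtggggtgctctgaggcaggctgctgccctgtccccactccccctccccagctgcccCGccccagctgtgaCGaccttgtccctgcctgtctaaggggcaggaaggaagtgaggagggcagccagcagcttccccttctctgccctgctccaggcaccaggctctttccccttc
HCLS1: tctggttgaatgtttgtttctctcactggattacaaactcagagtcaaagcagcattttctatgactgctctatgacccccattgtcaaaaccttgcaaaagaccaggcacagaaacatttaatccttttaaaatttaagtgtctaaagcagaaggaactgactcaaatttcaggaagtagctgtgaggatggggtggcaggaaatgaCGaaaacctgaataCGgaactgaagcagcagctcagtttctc

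Most of these windows held few CpG sites. PRF1 held 8, CD3D 4, LAPTM5 3 and HCLS1 2, and of the others INPP5D held 9, IL32 6 and PTPRC 1. The median over 15333 protein-coding promoters was 17. At least as many sites as in PRF1 were found in 72.9% of those promoters, and at least as many as in PTPRC in 96.9%. CORO1A stood apart with 23 sites, a number that 34.6% of promoters reached. Genes that were higher and genes that stayed low thus both had CpG-poor windows. The letters AGGAAGT were searched for on both strands after the sequences had been seen. They occurred in the windows of PRF1, INPP5D, LAPTM5 and PTPRC, 4 of the 7, and in 7.02% of all promoters. Because of that order nothing is read from these shares, and the INPP5D window lies wholly in annotated exons. The window of HCLS1 held the letters as well, and those of CD3D, CORO1A and IL32 did not. No DNA methylation values were used here.

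The hairpin target was checked first. UHRF1 (chromosome 19, 4903080 to 4962154, plus strand) had a TPM of 87.5 and 98.4 in HCT116 shScr and 31.7 and 32.7 in HCT116 shUHRF1. In UF1hypo it had 47.3 and 50.6 with shScr and 34.1 and 21.1 with shUHRF1. Both shUHRF1 libraries lay below both shScr libraries in each line, and the shUHRF1 groups of the lines overlapped. These are RNA levels and do not give the dose of UHRF1 protein, which the study followed by western blot. The log2 fold change was −1.50 in HCT116 (limma, SE 0.222, adjusted p = 0.0565) and −0.84 in UF1hypo (limma, SE 0.221, adjusted p = 0.0406), and neither was called. Aligned sequence, taken from the ratio of coverage to FPKM, was between 5.42 and 7.83 gigabases in a library. The UF1hypo shUHRF1 libraries were the least alike, with a Pearson correlation of 0.956 between replicates on the log2(TPM + 1) scale across genes against at least 0.991 in the other groups. The difference between replicate 1 and replicate 2 in that group moved with the GC content of the transcript (Spearman correlation 0.815 across genes, which are not independent), and that of UF1hypo shScr did so the other way (−0.511). The part of GC content in the results was not tested. After a GC correction, the log2 fold changes in UF1hypo were 5.26 for PRF1, 1.1 for INPP5D and 2.03 for CD3D, all called. That of CORO1A, which was not called, is given below, beside counts of calls after that correction.

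The cells kept the expression of an epithelial line. Of 16 epithelial genes listed, 12 were above 1 TPM in at least 1 library, and their summed TPM was at least 5048 in every library. Keratin 8 (KRT8) ranged from 1539 to 5035 TPM, keratin 19 (KRT19) from 1316 to 3982 and keratin 18 (KRT18) from 1055 to 3394. The adhesion protein EPCAM ranged from 174 to 372. LGALS4, CDX1, VIL1 and CEACAM5 stayed below 1 TPM in every library. The intestinal transcription factor CDX2 ranged from 12.15 to 18.25 TPM. The colon origin is that of the cell line and was not tested by these genes.

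PRF1 (ENSG00000180644.8, chromosome 10, 70597348 to 70602759, minus strand) had the highest level of the 10 genes after knockdown. Its TPM was 4.044 and 4.197 in HCT116 shScr and 17.6 and 18.01 in HCT116 shUHRF1. In UF1hypo it was 2.40 and 3.01 with shScr and 212 and 141 with shUHRF1. The groups did not overlap in either line, and the UF1hypo shUHRF1 libraries stood far above all others. Among all tested genes, both shUHRF1 libraries lay above both shScr libraries in 20.1% in HCT116 and 30.6% in UF1hypo. They lay below them in 29.3% and 18.3%. The mean was 4.32-fold higher in HCT116 and 65.2-fold higher in UF1hypo, and the log2 fold changes on the TPM + 1 scale were 1.88 ± 0.228 and 5.56 ± 0.229 (SE). That rank was 13 among 12704 tested genes in HCT116 and 14 among 13620 in UF1hypo. StringTie listed a mean coverage of 682 and 420 reads per base over PRF1 in the UF1hypo shUHRF1 libraries, against at most 11.7 in any shScr library.

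**Figure D1:**
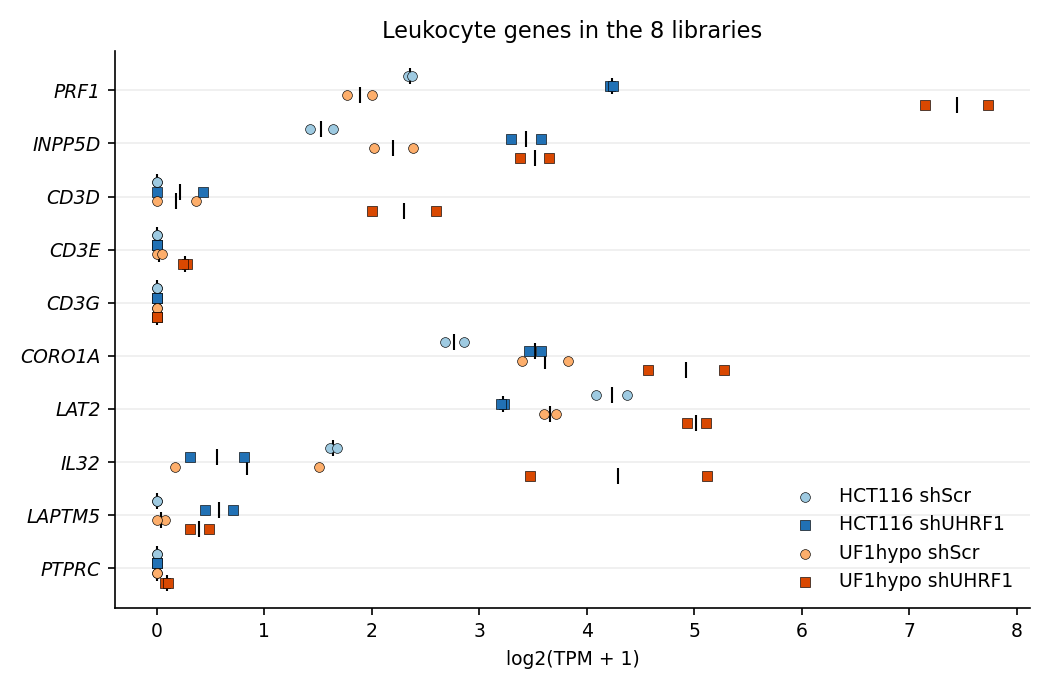
Level of the 10 leukocyte genes in the 8 libraries as log2(TPM + 1), with points for libraries, a tick for the mean of each group, circles for shScr and squares for shUHRF1. PRF1 reached 141 and 212 TPM in UF1hypo shUHRF1, whereas CD3G was listed at 0 in all 8 libraries and PTPRC stayed at or below 0.0728.

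The T-cell receptor chains were unequal. CD3D (ENSG00000167286.10, chromosome 11, 118339075 to 118342705, minus strand) had no TPM above 0 in HCT116 shScr, and was at 0 and 0.349 in HCT116 shUHRF1. It was at 0 and 0.287 in UF1hypo shScr and at 5.05 and 2.99 in UF1hypo shUHRF1. Both libraries of that last group lay above all 6 others, with a log2 fold change of 2.12 ± 0.271 (SE) in UF1hypo. Because the shScr group reached 0, that size depends on the added 1, and it was 4.34 with a pseudocount of 0.1. CD3E (ENSG00000198851.10, chromosome 11, 118304730 to 118316175, plus strand) was at 0.211 and 0.183 TPM in UF1hypo shUHRF1, at 0.0312 in replicate 2 of UF1hypo shScr and listed at 0 elsewhere. CD3G (ENSG00000160654.11, chromosome 11, 118344344 to 118355161, plus strand) was listed at 0 in all 8 libraries. CD3G begins just beyond the start of CD3D and is read in the opposite direction.

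INPP5D (ENSG00000168918.14, chromosome 2, 233059967 to 233207903, plus strand) was higher to a like level in both lines. Its TPM was 1.68 and 2.11 in HCT116 shScr and 10.9 and 8.83 in HCT116 shUHRF1. In UF1hypo it was 3.05 and 4.22 with shScr and 11.6 and 9.39 with shUHRF1. The shUHRF1 libraries of both lines overlapped each other and lay above all shScr libraries, and UF1hypo shScr lay above HCT116 shScr. The mean was 5.21-fold higher in HCT116 and 2.88-fold higher in UF1hypo, with log2 fold changes of 1.91 ± 0.235 and 1.31 ± 0.232 (SE). The difference between these effects, UF1hypo minus HCT116, was −0.59 ± 0.328 (SE) and was not called.

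CORO1A (ENSG00000102879.16, chromosome 16, 30182827 to 30189076, plus strand) was expressed before any knockdown. In HCT116 its TPM was 5.41 and 6.23 with shScr and 10.94 and 10.03 with shUHRF1. In UF1hypo it was 13.2 and 9.57 with shScr and 37.9 and 22.7 with shUHRF1. HCT116 shUHRF1 fell within the range of UF1hypo shScr, and both knockdown groups lay above their own controls. The log2 fold changes were 0.75 ± 0.269 in HCT116 and 1.31 ± 0.271 (SE) in UF1hypo. The second of these was 1.00 after the GC correction, where it was not called. CORO1A-AS1, a noncoding gene on the opposite strand that overlaps it, was at 0.942 TPM or below in every library. Whether the counting used strand is not given in the sources used here, so reads of this pair cannot be told apart.

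LAT2 and IL32 went in opposite directions in the lines. LAT2 (ENSG00000086730.17, chromosome 7, 74199652 to 74229834, plus strand) had a TPM of 19.8 and 16.0 in HCT116 shScr and 8.41 and 8.19 in HCT116 shUHRF1. In UF1hypo it had 11.1 and 12.1 with shScr and 33.4 and 29.6 with shUHRF1. The knockdown libraries thus lay below the controls in HCT116 and above them in UF1hypo, with log2 fold changes of −1.02 ± 0.189 and 1.36 ± 0.189 (SE). The change in HCT116 was not called, but was called lower with the 4 HCT116 libraries alone and without either UF1hypo shUHRF1 library.

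IL32 (ENSG00000008517.19, chromosome 16, 3065297 to 3082192, plus strand) was at 2.06 and 2.19 TPM in HCT116 shScr and at 0.242 and 0.759 in HCT116 shUHRF1. It was at 1.85 and 0.122 in UF1hypo shScr and at 33.7 and 10.1 in UF1hypo shUHRF1. The replicates of both UF1hypo groups were far apart, but those groups did not overlap. The log2 fold changes were −1.08 ± 0.560 in HCT116 and 3.46 ± 0.565 (SE) in UF1hypo, the widest errors among the 10 genes. The difference between the lines was 4.54, and it ranked 18 among 13781 genes. Without replicate 2 of UF1hypo shScr it was 3.86 and was not called.

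LAPTM5 and PTPRC stayed near 0. LAPTM5 (ENSG00000162511.8, chromosome 1, 30732469 to 30757774, minus strand) had no TPM above 0 in HCT116 shScr, and was at 0.638 and 0.363 in HCT116 shUHRF1. It was at 0.0561 and 0 in UF1hypo shScr and at 0.235 and 0.399 in UF1hypo shUHRF1. PTPRC (ENSG00000081237.20, chromosome 1, 198638457 to 198757476, plus strand) was at 0.0561 and 0.0728 TPM in UF1hypo shUHRF1 and listed at 0 in the other 6 libraries. In the UF1hypo shUHRF1 libraries, PRF1 was thus at 141 TPM or more while CD45, which marks nucleated blood cells, was below 0.1. In bulk RNA, fewer cells of a type and less RNA per cell cannot be told apart, so the share of cells that held any of these transcripts is not known.

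The order of the 10 genes by mean TPM differed between groups. In UF1hypo shUHRF1 it was PRF1 at 177 ± 50.2 (SD, n = 2 libraries), LAT2 at 31.5 ± 2.73, CORO1A at 30.3 ± 10.7, IL32 at 21.9 ± 16.7 and INPP5D at 10.5 ± 1.54, followed by CD3D at 4.02 ± 1.46. LAT2, CORO1A and IL32 overlapped, and so did IL32 and INPP5D, whereas both PRF1 libraries stood above every other value. In HCT116 shScr the order was LAT2 at 17.9 ± 2.66, CORO1A at 5.82 ± 0.576, PRF1 at 4.12 ± 0.108, IL32 at 2.12 ± 0.0928 and INPP5D at 1.89 ± 0.305, and the other 5 genes were listed at 0 in both libraries. IL32 and INPP5D overlapped there, and the remaining neighbours in that order did not. PRF1 therefore passed from the third of the 10 genes in HCT116 shScr to the first in UF1hypo shUHRF1.

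Protein-coding genes entered a comparison if any of its libraries had more than 1 TPM. Calls needed a log2 fold change beyond 1 in either direction, together with an adjusted p-value under 0.05 across those genes. Of the 10 genes, 5 were tested in HCT116, 6 in UF1hypo, 6 for the difference between the lines and 5 for UF1hypo shScr against HCT116 shScr. On knockdown in HCT116, PRF1 and INPP5D were called higher, 2 of 5, where 0.0472% of all tested genes were called higher and 0.0236% lower. Both calls were lost, 0 of 5, without any single HCT116 or UF1hypo shScr library, and also with no TPM filter, median-ratio scaling or the replicate block. In UF1hypo all 6 tested genes were called higher, where 7.39% of all tested genes were called higher and 1.14% lower. With the 4 UF1hypo libraries alone 4 were called, without INPP5D and CORO1A. For the difference, PRF1, CD3D, LAT2 and IL32 were called, 4 of 6, where 4.54% of all tested genes had a called difference towards UF1hypo and 0.559% towards HCT116. That count was 2 without any single HCT116 library or without replicate 2 of UF1hypo shScr. None was called between the control groups, where 2.59% of all tested genes were called higher in UF1hypo shScr and 0.949% lower. The genes were chosen by these values, so nothing is read from these shares, and CD3D was tested in UF1hypo only through its level after knockdown. Over all 10 genes the median log2 fold change was 0.11 in HCT116 and 1.31 in UF1hypo, beside −0.03 and 0.04 over all tested genes.

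**Figure D2:**
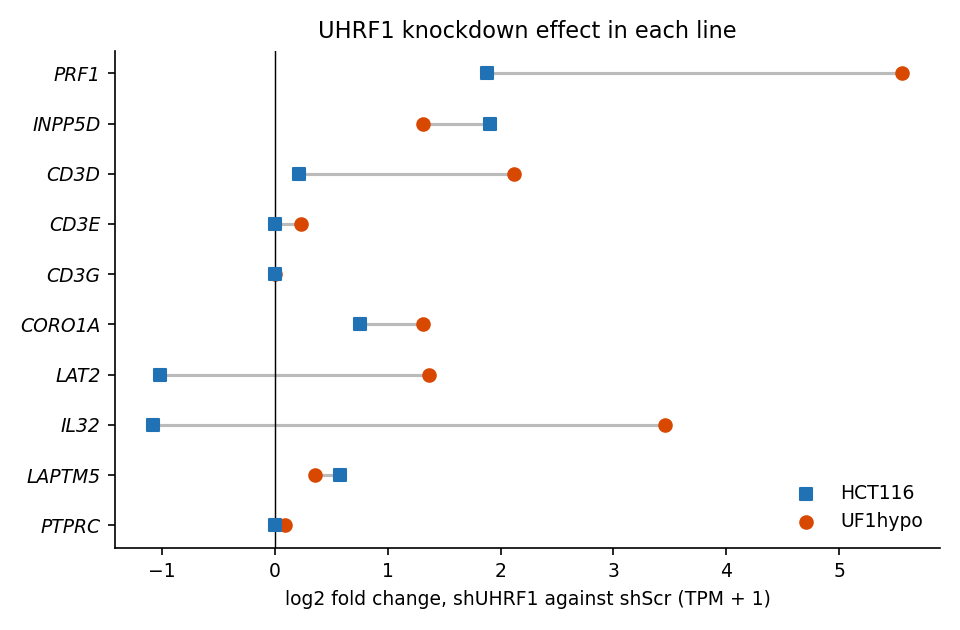
Log2 fold change of each leukocyte gene on UHRF1 knockdown, on the TPM + 1 scale, in HCT116 (squares) and UF1hypo (circles), joined by a line. PRF1 moved from 1.88 to 5.56 between the lines, LAT2 and IL32 lay below 0 in HCT116 and above 0 in UF1hypo, and INPP5D alone among the called genes lay higher in HCT116.

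Leukocyte genes outside the 10 were read from 6 lists with 103 further genes, named for pan-leukocyte, T-cell receptor, cytotoxic granule, B-cell, myeloid, and erythroid and platelet genes. Of these 103, 58 never exceeded 1 TPM and 17 were listed at 0 in all 8 libraries. On knockdown in HCT116, 0 of 27 tested genes were called by limma, and 8 had an unadjusted p-value below 0.05, as did 6.38% of all tested genes. In UF1hypo 17 of 42 tested genes (40.5%) were called higher and 0 lower, beside 7.39% and 1.14% of all tested genes. Of the 42, 28 had an unadjusted limma p-value below 0.05, as did 27.4% of all tested genes. The median log2 fold change of the 42 was 0.77. Of those 42 genes, 28 were above 1 TPM in a UF1hypo shScr library. Of these, 9 (32.1%) were called higher, against 4.48% of all genes above that floor. Among the 9, CD79B, CD52 and STX11 exceeded 1 TPM in a single UF1hypo shScr library. Levels above the floor were not matched, and the lists were chosen with earlier results of these data known. These shares are therefore a description. The other 14 passed the filter only through the knockdown libraries and so had to differ. Of these 8 (57.1%) were called, against 43.1% of all such genes. The number called was 9 with the 4 UF1hypo libraries alone and 10 without either UF1hypo shScr library. The effects in the lines differed in 10 of 45 tested genes, beside 4.54% of all tested genes with a called difference towards UF1hypo. That count was 1 without replicate 1 of HCT116 shUHRF1 and 6 with a pseudocount of 0.1. Among the 10, GRAP2, SRGN, CD5 and PAX5 passed the filter only through UF1hypo shUHRF1, where they were high.

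Among pan-leukocyte genes, 4 of 9 tested were called higher in UF1hypo, beside 7.39% of all tested genes: HCLS1, CD52, SELPLG and ARHGDIB. SELPLG passed the filter only through the knockdown libraries. HCLS1, which links the B-cell receptor to actin, was at 0 and 0.279 TPM with shScr and at 0.755 and 0.742 with shUHRF1 in HCT116. In UF1hypo it was at 1.88 and 1.86 with shScr and at 47.1 and 51.8 with shUHRF1. All 4 groups were separate, and its log2 fold change in UF1hypo was 4.14 (limma, SE 0.208, adjusted p = 1.11e-05). It was also higher in UF1hypo shScr than in HCT116 shScr, by 1.34 (limma, SE 0.219, adjusted p = 0.0102). CD52, a lymphocyte surface glycoprotein, rose by 2.50 in UF1hypo (limma, SE 0.456, adjusted p = 0.0087). It went from 0 and 1.86 TPM with shScr to 6.77 and 10.8 with shUHRF1. Because a control library was at 0, that size depends on the added 1. ARHGDIB rose by 1.49, and SELPLG, the P-selectin ligand, had a log2 fold change of 1.62. RAC2 and VAV1, the most abundant by mean over the 8 libraries, were not called. RAC2, a small GTPase of blood cells, ranged from 56.3 to 144 TPM, and its log2 fold change in UF1hypo was 0.13. VAV1, an exchange factor of lymphocytes, was at 32.5 TPM or more in HCT116 shScr, and its log2 fold change in UF1hypo was −0.78, which was not called. IKZF1, a transcription factor of lymphocytes, and CD48 were listed at 0 in all 8 libraries.

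Among genes of the T-cell receptor pathway, 5 of 9 tested were called higher in UF1hypo, beside 7.39% of all tested genes. These were CD7, GRAP2, ZAP70, CD5 and LAT. LAT was above 1 TPM in the UF1hypo shScr libraries, whereas CD7, GRAP2, ZAP70 and CD5 passed the filter only through the knockdown libraries, so their calls give no support. CD7, a T-cell surface protein, had a log2 fold change of 2.28 (SE 0.331), from 0.895 and 0.887 TPM with shScr to 12.4 and 5.28 with shUHRF1. GRAP2, an adaptor that binds LAT, went from 0 in each UF1hypo shScr library to 3.29 and 2.01 TPM with shUHRF1. ZAP70, the kinase that docks on the CD3 chains, had 4.37 and 1.11 TPM in UF1hypo shUHRF1, so that its replicates were far apart. Other parts of the receptor complex stayed low. CD247, the zeta chain, reached 0.785 TPM at most, the kinase LCK 1.73, and LCP2, the partner of LAT and GRAP2, 0.0214. CD2, CD8B and THEMIS were listed at 0 in all 8 libraries. TCF7, a transcription factor that T cells share with the intestinal epithelium, was the most abundant, at 15.77 to 26.99 TPM, and was not called.

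Among cytotoxic granule genes other than PRF1, 3 of 11 tested were called higher in UF1hypo, beside 7.39% of all tested genes. These were UNC13D, SRGN and STX11. SRGN passed the filter only through the knockdown libraries. UNC13D, which primes granules for release, was at 16.1 and 12.4 TPM with shScr and at 18.8 and 17.8 with shUHRF1 in HCT116. In UF1hypo it was at 43.4 and 47.4 with shScr and at 358 and 199 with shUHRF1. Its log2 fold change was 2.53 (limma, SE 0.266, adjusted p = 0.0006) in UF1hypo and 0.35 in HCT116, and it was higher in UF1hypo shScr than in HCT116 shScr by 1.61. STX11, a syntaxin of granule release, rose by 1.49, and SRGN, the proteoglycan that packs granules, had a log2 fold change of 2.05. STXBP2, the partner of STX11, was expressed at 174 to 282 TPM throughout, with a log2 fold change of 0.04 in UF1hypo, and the granzyme inhibitor SERPINB9 had 0.18. The granzymes, which PRF1 delivers into target cells, were at low levels. GZMA, GZMH and GZMK were listed at 0 in all 8 libraries, GZMB was at 0.191 in a single library, and GZMM stayed at 2.34 TPM or below and was not called. FASLG, NCR1 and FCGR3A were listed at 0 in all 8 libraries as well. The summed TPM of the 25 cytotoxic genes without PRF1 was 252 to 336 outside UF1hypo shUHRF1 and 704 and 454 within it, mostly STXBP2 and UNC13D.

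**Figure D3:**
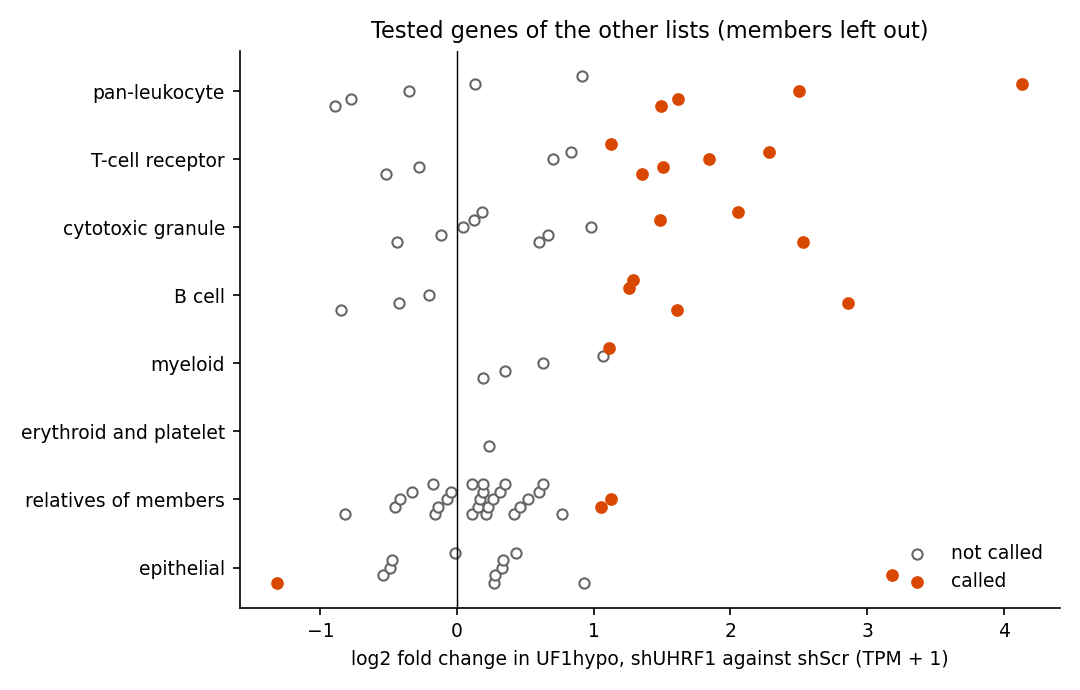
Log2 fold change in UF1hypo on UHRF1 knockdown for the tested genes of each list without the 10 leukocyte genes, filled where called. Of the 42 leukocyte-list genes, 17 were called, all higher, beside 7.39% of all tested genes called higher. Among the 28 above 1 TPM in a UF1hypo shScr library, 9 were called, against 4.48% of all such genes. The other 14 passed the filter only through the knockdown libraries, and 8 were called, against 43.1% of all such genes. The lists were chosen with earlier results of these data known, so these shares are a description. HCLS1 led the called genes at 4.14, and the relatives of the 10 genes lay nearer to 0.

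B-cell genes had 4 of 7 tested genes called higher in UF1hypo, beside 7.39% of all tested genes. CD79B, a signalling chain of the B-cell receptor, rose by 2.86 (limma, SE 0.293, adjusted p = 0.000524), from 0.141 and 1.01 TPM to 11.5 and 8.65. Its partner CD79A was not called, with 1.61 and 0.714 TPM with shScr and 0.280 and 0.0810 with shUHRF1 in UF1hypo. CD22, an inhibitory receptor, rose by 1.29. BLK, a kinase of B cells, and PAX5, the B-cell transcription factor, passed the filter only through the knockdown libraries. Of all such genes 43.1% were called. BLK and PAX5 had log2 fold changes of 1.61 and 1.26. TNFRSF13C, a receptor for a B-cell survival factor, had a log2 fold change of −0.42 and was not called, and MS4A1 stayed below 1 TPM. Of 5 tested myeloid genes only CD68, a lysosomal protein of macrophages, was called, with a log2 fold change of 1.11 (limma, SE 0.201, adjusted p = 0.00838). CD68 was at 40.6 and 42.6 TPM with shScr and 107 and 77.7 with shUHRF1 in UF1hypo. CD33 and CSF1R, the most abundant after CD68, had log2 fold changes of 0.63 and 0.19 there and were not called. MNDA, S100A12 and FCGR1A were listed at 0 in all 8 libraries, and CD14, LYZ and MPO stayed below 1 TPM. Of the erythroid and platelet genes, 0 of 1 tested in UF1hypo was called. ITGA2B, the platelet integrin, had 9.43 and 5.05 TPM in UF1hypo shUHRF1, the globin genes HBA1 and HBA2, near-identical copies whose split is uncertain, reached 1.25 and 2.07 TPM at most, HBB stayed below 0.5 TPM, and PF4 and PPBP were listed at 0 in all 8 libraries.

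The lists were also summed by library. A few abundant genes weigh most in these sums, such as TCF7 in the T-cell receptor list and CD68 and CD33 in the myeloid list. Without the 10 genes, the pan-leukocyte list, with RAC2 as its most abundant gene, summed to 100.3 to 162.4 TPM outside UF1hypo shUHRF1. Within that group it summed to 238.8 and 195.5. Without the 10 genes, the T-cell receptor list summed to 29.4 to 32.4 TPM outside UF1hypo shUHRF1 and to 52.4 and 36.5 within it. The B-cell list summed to between 6.65 and 11.5 TPM and then to 34.1 and 24.9. The myeloid list was at 24.1 to 27.9 TPM in HCT116, and in UF1hypo at 59.9 and 63.8 with shScr and 142 and 110 with shUHRF1. The erythroid and platelet list was between 3.82 and 11.3 TPM in all libraries. Whether RNA of blood cells took part in these sums was not tested beyond the markers given above. Replicate 1 of UF1hypo shUHRF1 had the higher sum in each of the 6 lists.

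Relatives of the 10 genes with wider expression were nearly all expressed. Of 29 such genes, 28 were tested in each comparison, and MPEG1, a macrophage relative of perforin, was listed at 0 in all 8 libraries. In UF1hypo 2 of 28 were called higher, a share near the 7.39% of all tested genes, namely LAT, the T-cell relative of LAT2, and CORO2B, a coronin. In HCT116 0 of 28 were called. The most abundant, LAPTM4B, LAPTM4A and PTPRF, were above 141 TPM in every library, and none was called in either line. INPPL1 (SHIP2), the close relative of INPP5D, was at 68.0 to 149 TPM, with a log2 fold change of 0.05 in HCT116 and 0.15 in UF1hypo. INPP5D thus lay at a lower level than its wide-ranging relative in every library.

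The genes on either side of the 10 genes were compared next, as the nearest 2 protein-coding genes on each side by the coordinates of the tables. The CD3 genes share theirs, which leaves 32 genes. On knockdown in UF1hypo, 1 of 24 tested neighbours was called, beside 7.39% of all tested genes, which is no result about neighbours. It was ADAMTS14, a metalloprotease 69747 bases from PRF1. It had 12.3 and 13.9 TPM with shScr and 37.1 and 20.4 with shUHRF1, a log2 fold change of 1.02 (limma, SE 0.272, adjusted p = 0.043), and it was no longer called in 6 of 8 alternatives other than leaving out a library. In the other neighbours the log2 fold change lay between −0.37 and 0.60. In HCT116 0 of 25 tested neighbours were called by limma, and 1 had an unadjusted p-value below 0.05, beside 6.38% of all tested genes. PALD1, the gene nearest to PRF1 at 28898 bases, had a log2 fold change of 0.46 in UF1hypo, against 5.56 for PRF1. ATG16L1, 2148 bases from INPP5D, had 0.10, and UBE4A, 4439 bases from CD3G, had −0.04. EIF4H and RFC2, which flank LAT2 at 2530 and 1665 bases, had 0.20 and 0.15. BOLA2B and SLX1A beside CORO1A belong to a duplicated region, and their values are uncertain.

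Across the tested genes with an entry in the promoter table, the share called higher in UF1hypo fell with the number of CpG sites in the promoter window. It was 19.6% of 902 genes with up to 4 sites, 17.4% of 904 genes with 5 to 9, 5.15% of 3125 genes with 10 to 19 and 3.85% of 5889 genes with 20 or more. CD3D and HCLS1 fall in the first of these classes, PRF1, INPP5D and IL32 in the next, and CORO1A in the last. LAPTM5 and PTPRC, also in the first class, were not tested. These shares are a description across genes, and low starting levels, which also raise the share called, were not separated from CpG number.

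The genes whose pattern over the 8 libraries was most like that of PRF1, INPP5D and CD3D came from many tissues. Likeness was Pearson's r of log2(TPM + 1), given as a description over 8 libraries that fall into 4 groups. For PRF1 these included APOBEC3B (r = 0.986), a cytidine deaminase, SPARC, a matrix protein, PAGE1, a cancer-testis antigen, and TUBA1A, a tubulin. PAGE1 was listed at 0 in all 4 shScr libraries and had 2.12 and 1.09 TPM in HCT116 shUHRF1 and 42.2 and 44.7 in UF1hypo shUHRF1. For INPP5D they were PHLDB1 (r = 0.967), LAMB1, a laminin chain, TENT5C, SLC2A1, the glucose transporter, and CDKN1C, an inhibitor of cyclin-dependent kinases. SLC2A1 had 150 and 155 TPM in HCT116 shScr and 382 and 403 in HCT116 shUHRF1, and in UF1hypo 149 and 175 with shScr and 411 and 292 with shUHRF1, so that it was also higher to a like level in both lines. For CD3D they were FLT4 (r = 0.996), a receptor of lymphatic vessels, TLCD2, TMEM229B, RPH3A, a synaptic vesicle protein, and DUOXA1, a partner of an epithelial oxidase.

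In the control cells, none of the 10 genes was called between UF1hypo and HCT116. INPP5D and CORO1A were higher in UF1hypo shScr, by 0.67 and 0.85 on the log2 scale, and PRF1, LAT2 and IL32 lay lower in both libraries. Both UF1hypo shScr libraries lay above both HCT116 shScr libraries in 29.1% of all tested genes and below them in 37.2%. Of the other leukocyte-list genes, 3 of 30 tested were called higher there and 0 lower, beside 2.59% and 0.949% of all tested genes. The 3 were UNC13D, CD68 and HCLS1. All 3 were also called on knockdown in UF1hypo. The comparisons share the UF1hypo shScr libraries. Without any 1 library of either control group, 1 of the 3 was called.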

How the data were processed

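Gene expression was measured by paired-end RNA-seq of polyA RNA in 8 libraries. Trimming by the authors was with Fastp, alignment (GRCh38) with HISAT2 2.0.4 and gene quantification with StringTie 2.1.4, the latter versions per the labels. The deposited coverage values are reads per base and unscaled, the deposited FPKM values are scaled by the authors for gene length and aligned bases, and the deposited TPM values for gene length and library total. The tables hold no read counts, so no counting interval was formed and no count test was run. How many reads lie behind a value is unknown beyond 5.42 to 7.83 gigabases aligned in a library.

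Protein-coding genes of GENCODE version 44 were kept, and TPM was taken as log2(TPM + 1). All libraries entered a single fit with 4 groups in limma 3.58.1 (R 4.3.3), using empirical Bayes moderation with a mean trend, on 4 residual degrees of freedom. P-values were adjusted (Benjamini-Hochberg) over all genes with TPM above 1 in a library of the comparison. A log2 fold change on this scale understates that of low genes. For 1 gene, 2 libraries against 2 cannot give an exact permutation p below 0.05. The fit was tested on simulated data. Other settings tried were FPKM, a pseudocount of 0.1, median-ratio scaling, no TPM filter, only the 4 libraries compared, a replicate block and omission of single libraries, and, chosen after seeing the data, a GC correction in 10 bins and a crossed block. Python 3.11.15, numpy and pandas were used for the rest.

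The 10 genes and the lists were chosen with earlier results of these data known. Named are the 10 genes, UHRF1, the called genes of each list up to the 4 largest changes in each comparison, the 3 most abundant genes of each list, called neighbours and the 5 genes most like PRF1, INPP5D and CD3D. Genes listed at 0 or near 0, the neighbours nearest to a gene, and the relatives and partners set beside a called gene were named after their values were seen. DNMT1 hypomorphs were not analysed here, and a few genes that the rule names or the lists hold are not reported here.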

Additional observations from a re-analysis of the deposited data

Results flagged for a closer look

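A test of the difference between the knockdown effects, UF1hypo minus HCT116, called 14 genes of the lists outside the 10 leukocyte genes (limma, adjusted p below 0.05 over all tested genes). Of all tested genes, 4.54% had a called difference towards UF1hypo and 0.559% towards HCT116. On the log2 scale the difference was 3.51 for HCLS1, 2.37 for CD79B, 2.22 for CD22, 2.18 for UNC13D and 2.08 for GRAP2. It was 1.95 for CD68, 1.66 for SRGN, 1.46 for CD5, 1.45 for STX11 and 1.27 for PAX5. GRAP2, SRGN, CD5 and PAX5 exceeded 1 TPM in the UF1hypo shUHRF1 libraries alone, so that the filter admitted them through the group where they were high. CD22 and CD68 lay lower after knockdown in HCT116, by log2 fold changes of −0.93 and −0.84 that were not called, and were called higher in UF1hypo. Of the relatives, CORO2B differed by 1.96, and it lay at −0.91 in HCT116, not called, and at 1.05 in UF1hypo, called higher.

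Of the epithelial genes, KRT20, a keratin of differentiated intestinal cells, differed by 2.98. In HCT116 it had 1.66 and 1.56 TPM with shScr and 1.88 and 2.11 with shUHRF1. In UF1hypo it had 9.28 and 9.06 with shScr and 75.01 and 110.7 with shUHRF1. CDH1, the adhesion protein E-cadherin, differed by 1.14, and ELF3, an epithelial transcription factor, by −1.16. Leaving out single libraries ended part of these calls, with between 1 and 14 of the leukocyte-list genes called.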

How the results depend on the processing

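Of the results that count called genes, the following moved by over 1.5 times, and the cause was not tested. The 2 of the 10 genes called in HCT116 became 0 with no TPM filter, with median-ratio scaling and with the replicate block, and between 0 and 2 with a library left out (0 without any of the HCT116 libraries or either UF1hypo shScr library). The 4 called for the difference became 2 to 4 with a library left out. The other leukocyte-list genes called in UF1hypo, 17, became 9 with the 4 libraries alone and 10 to 20 with a library left out. Those called for the difference, 10, became 6 with a pseudocount of 0.1 and 1 to 14 with a library left out, the lowest without replicate 1 of HCT116 shUHRF1. Those called between the controls, 3, became 1 to 3. The neighbours called in UF1hypo, 1, became 0 with no TPM filter, the 4 libraries alone, FPKM, median-ratio scaling, the replicate block and the GC correction, and 0 to 2 with a library left out. Neighbours called for the difference, 0, became 0 to 2. Neighbours called between the controls, 0, became 1 with a pseudocount of 0.1, the crossed replicate block and the GC correction, 2 with the 4 libraries alone and median-ratio scaling, and 0 to 2 with a library left out. The 6 of the 10 genes called in UF1hypo, which moved by less, became 4 with the 4 libraries alone, 5 with the GC correction and 5 to 6 with a library left out. No called fold change of the 10 genes reversed. Without replicate 1 of UF1hypo shUHRF1 the change of CORO1A in UF1hypo was 0.95, and without replicate 1 of UF1hypo shScr that of INPP5D was 1.13, and neither was called. FPKM in place of TPM gave 5.09 for PRF1 and 1.33 for CD3D in UF1hypo, both called. Same-numbered libraries did not deviate together, with correlations across genes of 0.0547 between the HCT116 groups and −0.402 between the UF1hypo groups, so the numbers do not pair the samples. With the UF1hypo shUHRF1 numbers crossed, chosen after seeing the data, 6 of the 10 genes and 18 leukocyte-list genes were called in UF1hypo. Depth limits values near 0, where a library can be listed at 0 beside a replicate that is not.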

Other observations

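Epithelial genes also differed between the control cells. In UF1hypo shScr against HCT116 shScr, 5 of 12 tested epithelial genes were called higher and 0 lower, beside 2.59% and 0.949% of all tested genes. KRT20 was higher by 1.96 on the log2 scale (limma, adjusted p = 0.00188), the tight junction protein CLDN4 by 1.22 (adjusted p = 0.00965), KRT8 by 1.16 (adjusted p = 0.00538), KRT18 by 1.14 (adjusted p = 0.0014) and KRT19 by 1.02 (adjusted p = 0.00724). KRT8 had 1565 and 1539 TPM in HCT116 shScr and 3453 and 3499 in UF1hypo shScr. EPCAM was not called, with 363 and 372 TPM in HCT116 shScr and 357 and 327 in UF1hypo shScr. On knockdown in UF1hypo, KRT20 rose by a further 3.18 (limma, adjusted p = 7.5e-05), and ELF3 fell by 1.32 (limma, adjusted p = 0.00253).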
